A study of Mus musculus with 3 samples.

Results

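The 10 genes Cd80, Cd86, Cd274, Pdcd1lg2, Icosl, Cd276, Vtcn1, Cd200, Havcr2 and Btla encode B7 family ligands and related costimulatory and checkpoint molecules. They were taken by name from the 19938 genes that had a probe set of their own on the array, and each was represented by its probe set with the highest mean. Expression was measured in mouse bone marrow-derived dendritic cells (BMDC), which are cells grown from marrow in culture. Cells from C57BL/6J marrow were seeded at 2000000 per well and cultured with 20 ng/ml GM-CSF and 20 ng/ml IL-4 over 9 days, and 150 ng of total RNA was amplified and labelled for each whole-transcript Affymetrix array. All 3 arrays form 1 group with no untreated, genetic or time contrast, and separate mice or cultures are not named in the labels. Every SD therefore describes only how these samples differed, which can be technical, and so few arrays limit the precision.

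A dendritic cell presents antigen to a T cell together with a second signal, which B7 family proteins on its surface deliver. CD80 and CD86 costimulate through CD28 and are also bound by the inhibitory receptor CTLA-4, ICOSL engages ICOS, and the ligands PD-L1 (Cd274) and PD-L2 (Pdcd1lg2) engage the inhibitory receptor PD-1. CD200 is a surface glycoprotein that restrains myeloid cells through CD200R1, while TIM-3 (Havcr2) and BTLA are checkpoint receptors that dendritic cells can carry as well as T cells.

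Values are log2 expression as deposited. Detection was judged against 1210 probe sets of olfactory and vomeronasal receptors, genes of sensory neurons. A gene counted as above background if it passed the 95th percentile of these probe sets in all 3 arrays. That limit lay at 5.54, 5.54 and 5.55 in replicates 1, 2 and 3. Of the 10 genes, 8 were above background, against 60.5% of all 19938 genes, and the same 8 exceeded the 99th percentile of receptor probe sets, which 46.2% of all genes did. They also exceeded a limit set by genes of other tissues, which 45.3% of all genes did. The exceptions were Vtcn1 and Btla. Probe sets bind with different strength, so a level is read against background only and not against another gene's level.

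**Figure D1:**
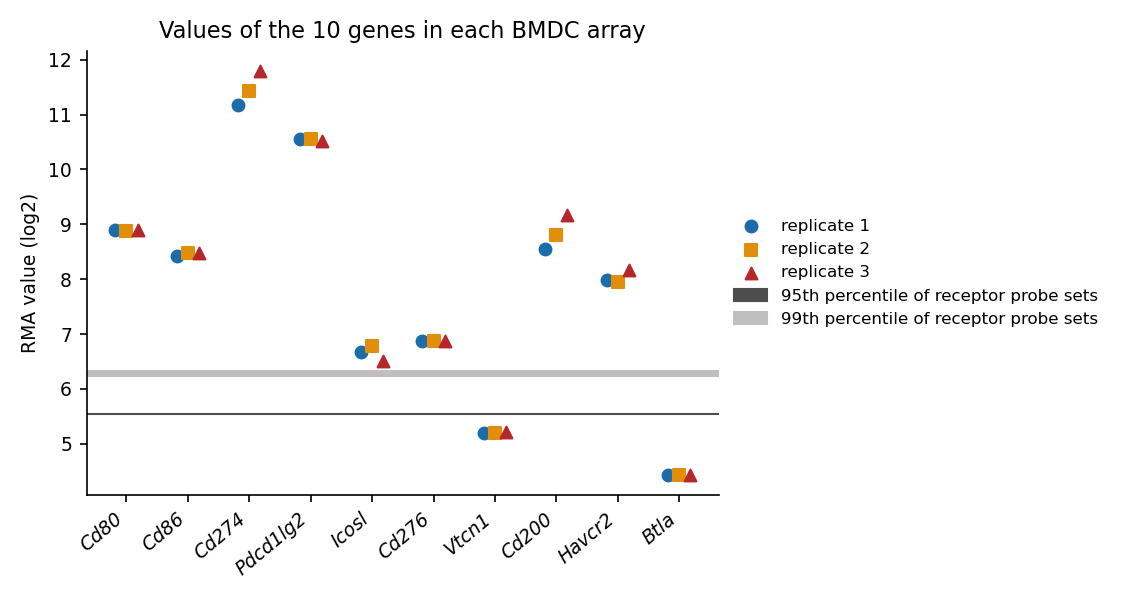
RMA values (log2) of the 10 genes in each of the 3 BMDC arrays, 1 point per array, with bands for the range over arrays of the 95th and 99th percentiles of receptor probe sets. Vtcn1 and Btla lie under the lower band in every array, and Cd274 and Cd200 are the genes whose points lie farthest apart.

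Both classical CD28 ligands were detected and hardly differed between arrays. Cd80 had 8.89, 8.88 and 8.89 in replicates 1, 2 and 3, a range of 0.012 log2 units. A second probe set that names Cd80 alone had 8.27 in each array, so it was above background as well, 0.62 log2 units under the first. Cd86 had 8.42, 8.48 and 8.48, with replicates 2 and 3 identical. The receptor gene Cd28, carried by T cells, was the member of this axis that differed most, with 7.46, 6.99 and 6.38, highest in replicate 1 and lowest in replicate 3. Ctla4, the inhibitory counterpart of Cd28, had 5.37 in each array and lay below background.

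The PD-1 ligand genes were both far above background but differed in how much they varied. Cd274 had 11.18, 11.44 and 11.80 in replicates 1, 2 and 3, a mean of 11.47 ± 0.31 (SD, n = 3). It was lowest in replicate 1 and highest in replicate 3, a difference of 0.62 log2 units or 1.53-fold. Pdcd1lg2 had 10.55, 10.56 and 10.53, a mean of 10.55 ± 0.017 (SD, n = 3). Its range was 0.032 log2 units, and replicate 3 was its lowest array, not its highest. Of the 12068 genes above background, 1.72% spanned as much as Cd274 and 41.4% as much as Pdcd1lg2. Their receptor gene Pdcd1 had 5.74 in each array, above the 95th but not the 99th percentile of receptor probe sets. Rgmb, which encodes a further binding partner of PD-L2, had 7.48 in each array.

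Cd200 varied like Cd274. It had 8.55, 8.80 and 9.18 in replicates 1, 2 and 3, a mean of 8.84 ± 0.32 (SD, n = 3), with the lowest value again in replicate 1 and the highest in replicate 3. The difference between those arrays was 0.63 log2 units or 1.55-fold, and 1.65% of the genes above background spanned as much. Deviations of Cd200 and Cd274 from their own means were -0.29 and -0.29 in replicate 1, -0.04 and -0.03 in replicate 2 and 0.33 and 0.33 in replicate 3. A range above 0.5 log2 units was found in 2 of the 8 detected genes, Cd274 and Cd200, against 2.61% of all genes above background. In 0.431% of all genes above background (52 genes) the range was that large with the lowest value in replicate 1, an intermediate one in replicate 2 and the highest in replicate 3, while 233 genes (1.93%) ran the opposite way.

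In the CD200 receptor family no gene rose from replicate 1 to replicate 3 in the deposited values, as Cd200 did. Identical values are common here, all 3 in 46.5% of genes above background. A tie therefore does not show that a gene did not differ. Cd200r1, which encodes the inhibitory receptor of CD200 on myeloid cells, had 9.08 in each array. Cd200r4 had 9.07, 9.07 and 9.04 and Cd200r2 had 7.92, 7.92 and 7.88. Cd200r3, in mice a receptor of basophils and mast cells, lay below background at 5.37, 5.37 and 4.67, lowest in replicate 3. Of the 4 measured genes of this family 3 were above background.

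Cd274 and Cd200 differed together between arrays and Pdcd1lg2 did not, a comparison chosen after the values were seen. Whether promoter sequence has a part in these differences was not tested. The 250 bases before the transcription start of each gene are shown from RefSeq (GRCm38.p6). They lie at chr19:29367188-29367437 on the plus strand for Cd274, at chr16:45409054-45409303 on the minus strand for Cd200 and at chr19:29410669-29410918 on the plus strand for Pdcd1lg2. Capitals mark the single match found in them among 6 searched motifs.
Cd274 promoter: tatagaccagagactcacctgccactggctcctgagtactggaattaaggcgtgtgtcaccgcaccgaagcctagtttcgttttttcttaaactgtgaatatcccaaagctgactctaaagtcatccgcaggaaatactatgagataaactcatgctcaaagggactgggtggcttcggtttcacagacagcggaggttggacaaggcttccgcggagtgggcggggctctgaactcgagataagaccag
Cd200 promoter: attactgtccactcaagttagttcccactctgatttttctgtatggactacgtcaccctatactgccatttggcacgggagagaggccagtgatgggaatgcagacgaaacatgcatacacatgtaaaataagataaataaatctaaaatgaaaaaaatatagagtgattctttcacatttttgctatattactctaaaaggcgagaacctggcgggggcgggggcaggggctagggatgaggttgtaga
Pdcd1lg2 promoter: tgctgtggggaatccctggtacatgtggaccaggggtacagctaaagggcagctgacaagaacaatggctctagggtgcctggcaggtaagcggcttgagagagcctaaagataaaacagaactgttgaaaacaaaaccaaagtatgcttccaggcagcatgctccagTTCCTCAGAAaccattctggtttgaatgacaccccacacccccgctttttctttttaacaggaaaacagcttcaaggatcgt
The motifs were searched on both strands and were the STAT element GAS (TTCNNNGAA), its wider form that STAT6 binds (TTC and GAA with 4 free bases between them), the interferon-stimulated response element (GAAA and GAAA with 2 free bases between them), an NF-kappaB site (GGGA and TTTCC with 1 free base between them), AP-1 (TGANTCA) and the hypoxia response core (ACGTG). No motif contains another as written, although ones with free positions can overlap in a sequence. None of the 6 was found as written in the windows of Cd274 and Cd200, and other forms of these motifs were not searched. The window of Pdcd1lg2 held the STAT6 form, 82 to 73 bases before the start, as did 5.85% of the 32851 RefSeq promoter windows of the same length. Cd274 had 11 CpG dinucleotides in its window, Cd200 had 6 and Pdcd1lg2 had 3, with a median of 6 over all windows. A match of letters does not show that a factor binds there, and its absence from this window says nothing about the factor.

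**Figure D2:**
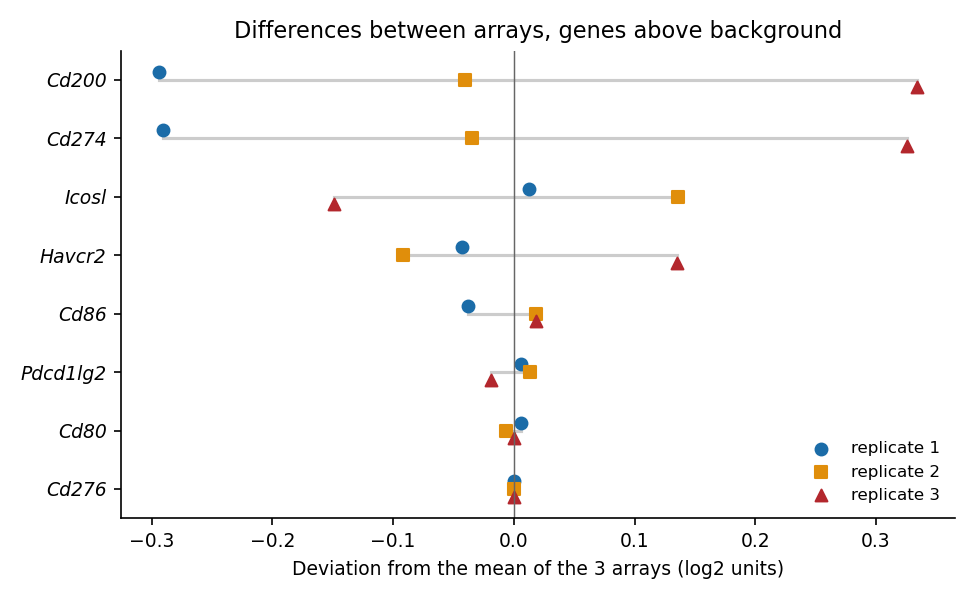
Deviation of each array from the mean of the 3 arrays (log2 units) for the 8 genes above background, sorted by range. Cd274 and Cd200 have nearly the same deviations, low in replicate 1 and high in replicate 3, whereas Cd80, Pdcd1lg2 and Cd276 stay within 0.02 of their means.

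Both genes have a neighbour among the 10. In the order of protein-coding genes in RefSeq, Pdcd1lg2 follows Cd274 directly and Cd200 follows Btla directly. Plgrkt, on the other side of Cd274, had 9.74, 9.74 and 9.95, a range of 0.21 with the highest value also in replicate 3, and Ric1, beyond Pdcd1lg2, had 9.86 in each array. Ermp1, the next gene after Ric1, had 7.83, 7.93 and 8.04, a range of 0.21 with the same order of arrays as Cd274. Btla had 4.44 in each array, below background, so its identical values do not bear on a comparison with Cd200.

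Icosl and Havcr2 were detected with smaller differences. Icosl, the ligand of ICOS, had 6.67, 6.79 and 6.51 in replicates 1, 2 and 3, lowest in replicate 3, with a mean of 6.66 ± 0.14 (SD, n = 3). The gene of its receptor, Icos, had 6.17, 6.02 and 6.02, above the 95th but not the 99th percentile of receptor probe sets. Havcr2 had 7.99, 7.94 and 8.17, highest in replicate 3, with a mean of 8.04 ± 0.12 (SD, n = 3). Their ranges were 0.29 and 0.23 log2 units, and 7% and 9.92% of the genes above background spanned as much. With Cd274 and Cd200, 4 of the 8 detected genes spanned more than 0.2 log2 units, against 11.8% of all genes above background. The median range was 0.14 log2 units over the 8 genes and 0.0096 over all genes above background. Of all genes above background 46.5% held 3 identical values, as did 1 of the 8, and such ranges of 0 lower the median.

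**Figure D3:**
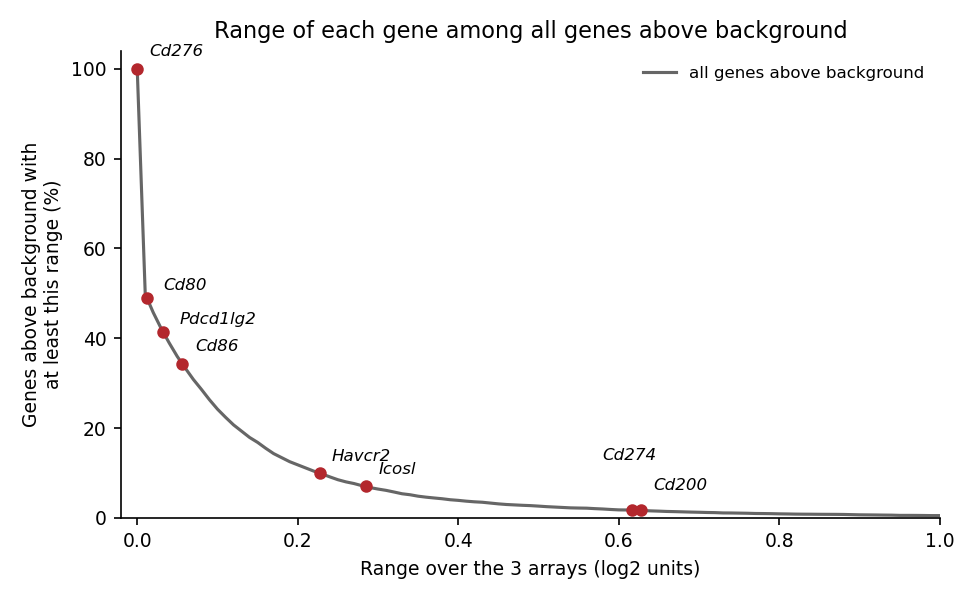
Percentage of the 12068 genes above background whose range over the 3 arrays (log2 units) was at least the value on the horizontal axis, with the 8 detected genes as points. Cd274 and Cd200 lie at 1.72% and 1.65%, while Cd80, Pdcd1lg2 and Cd86 lie between 34.3% and 48.9%.

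Of the TIM family, Havcr2 was above background and the 3 other listed genes were not. Havcr1, Timd2 and Timd4, which encode other TIM proteins, had 5.52, 4.15 and 5.15 in replicate 1 and lay below background in every array. Havcr1 was close to it, 0.023 log2 units under the mean background limit, while Timd2 was 1.39 units under. Ligand genes of TIM-3 were detected. Lgals9, which encodes galectin-9, had 10.54 in each array, and Ceacam1, an adhesion molecule that TIM-3 binds, had 8.71, 8.85 and 8.76. Hmgb1, a nuclear protein that TIM-3 also binds when released, had 6.52, 6.52 and 6.39.

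Of the remaining B7 genes, Cd276 (B7-H3) was detected and Vtcn1 (B7-H4) was not. Cd276 had 6.87 in each array. Of the 8 detected genes it was the 1 with 3 identical values, against 46.5% of all genes above background. Vtcn1, a ligand that inhibits T cells and is known from epithelia, had 5.19, 5.19 and 5.22, which is 0.34 log2 units under the mean background limit. For Btla, at 1.10 units under that limit, the gene of its ligand HVEM was detected, with Tnfrsf14 at 8.74, 8.86 and 8.85.

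Related genes of the pathway were taken as 10 lists with 69 different genes, of which 65 had a probe set of their own and 49 (75.4%) were above background, against 60.5% of all genes, the share beside which each count of a list stands. Among 7 other B7-like and butyrophilin-like genes only Vsir and Treml2 were detected. Vsir, the gene of the inhibitory ligand VISTA, had 9.92, 9.92 and 9.98, and Treml2 had 8.35, 8.35 and 8.08. The butyrophilin genes Btn1a1, Btn2a2 and Btnl2 lay below background, as did Vsig4 and Ildr2, but Btnl2 by only 0.023 log2 units. Of 7 TNF family costimulators 3 were above background. Cd40, which receives help from T cells, had 7.56, 7.59 and 7.59, Tnfsf9 (4-1BB ligand) had 5.64, 5.64 and 5.71 and Tnfsf15 had 6.67, 6.30 and 6.09. At the 99th percentile of receptor probe sets, and at the limit from genes of other tissues, 1 of the 7 remained, Cd40. Tnfsf4 (OX40 ligand), Cd70, Tnfsf14 and Tnfsf18 (GITR ligand) were not.

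In the list of nectin ligands and lymphocyte checkpoint receptors 6 of 8 genes were above background. At the 99th percentile of receptor probe sets, and at the limit from genes of other tissues, 5 of the 8 remained, without Lag3. Pvr, the poliovirus receptor homologue that binds TIGIT, had 7.36, 7.36 and 7.60, and Nectin2 had 6.97, 6.99 and 6.97. The lymphocyte receptor gene Cd96 had 8.98, 8.52 and 7.61, lowest in replicate 3 as Cd28 was. Tigit had 7.76, 7.67 and 7.63, Lag3 had 6.32, 6.32 and 6.09 and Cd226 had 8.72, 8.72 and 8.83. Nectin3 and Cd160 lay below background.

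All measured genes were detected in the lists of trafficking regulators (5 of 5), upstream cytokine signalling and transcription factors (14 of 14) and downstream adaptors and phosphatases (8 of 8). Cmtm6, which protects PD-L1 from lysosomal breakdown, had 9.06 in each array. Marchf1, the ubiquitin ligase that removes CD86 and class II molecules from the surface, had 8.28, 8.16 and 8.16, and Cd83, which opposes it, had 9.74, 9.75 and 9.51. Cmtm4, a homologue of Cmtm6, had 7.31 in each array, but a second probe set at 5.53 lay below background in every array.

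Irf1, the factor through which interferon-gamma induces Cd274, had 10.33, 10.52 and 10.61 in replicates 1, 2 and 3, lowest in replicate 1 and highest in replicate 3 by 0.27 log2 units. Its second probe set had 5.88 in each array. Irf4 (9.55, 9.67 and 9.74) and Irf8 (10.06, 10.17 and 10.33) had the same order of arrays. Ifngr1 and Ifngr2, the chains of the interferon-gamma receptor, were highest in replicate 1, by 0.16 and 0.11 units over replicate 3. Stat6, which carries the IL-4 signal, had 9.67, 9.71 and 9.71, and Il4ra had 9.87, 9.86 and 9.85. Jak3, whose probe set also names another gene, was not analysed here.

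**Figure D4:**
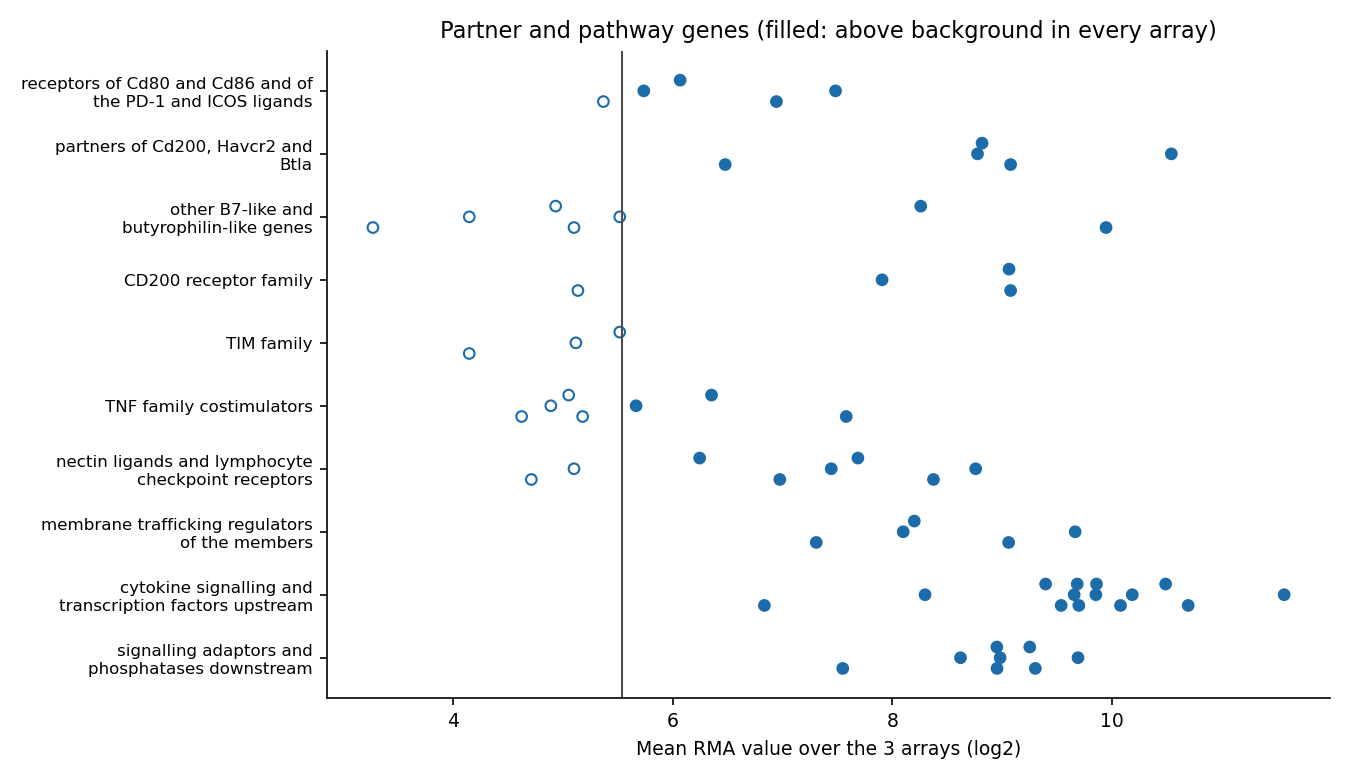
Mean RMA value (log2) over the 3 arrays of each measured gene in the 10 lists, 1 point per gene, filled where the gene was above background in every array; the vertical line is the mean background limit. The TIM family list has no filled point, and the lists of upstream factors (14 of 14) and downstream adaptors (8 of 8) have filled points only.

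By the Euclidean distance between deviations over the 3 arrays, the genes most like Cd274 outside the 10 were Rhov, Wfs1 and Scarb2, and those most like Cd200 were Rhov, Gde1 and Wfs1. Distances were 0.018, 0.025 and 0.025 log2 units for Cd274 and 0.0078, 0.024 and 0.033 for Cd200. Rhov, at 5.93, 6.19 and 6.57, lay near background, under the 99th percentile of receptor probe sets in replicates 1 and 2. Over all 3025 other genes above background with 3 different values, Cd200 itself was the nearest gene to Cd274 at 0.010, and Cd274 ranked at 2 for Cd200; this pair was set side by side after its values were seen. The nearest genes were Plekhf1, H4c3 and Padi2 for Icosl and Ciao2a, Zc3h13 and Ddx6 for Havcr2. Their distances lay between 0.0034 and 0.015, and each rests on 3 points.

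Markers of other cell types also differed between the arrays, mostly in the direction opposite to Cd274 and Cd200. Of 12 T cell markers 12 were above background, 11 of them were highest in replicate 1 and 10 were lowest in replicate 3. Their sum on the linear scale was 3177, 2562 and 1779 in replicates 1, 2 and 3. Every such sum was taken over all measured markers of a list, detected or not. Of 9 NK cell markers 5 were detected, with sums of 4967, 3849 and 2220, while Ncr1, Klrd1, Klre1 and Klra8 lay below background. The NK cell sum is carried mostly by Gzma (10.89, 10.42 and 9.68), Gzmb (10.89, 10.56 and 9.69) and Il2rb (9.81, 9.47 and 8.42). Mast cell and basophil markers (3 of 8 above background) summed to 738, 849 and 359. Among them Cpa3 (7.38, 7.54 and 5.38) and Mcpt8 (5.88, 5.97 and 4.68) were above background in 2 arrays each, not in replicate 3. The 3 detected in every array, Prss34 (7.75, 8.24 and 6.38), Gata2 (6.99, 6.99 and 6.42) and Hdc (6.30, 6.33 and 5.73), were also lowest in replicate 3. Neutrophil markers (4 of 8) summed to 1281, 1067 and 808. The neutrophil genes that differed most, Lcn2 (7.98, 6.69 and 5.12), Retnlg and Ly6g, were above background in 2 arrays each. Of the 4 above it in all 3, S100a9 and Camp were identical in the arrays. S100a8 (5.88, 5.78 and 5.56) and Mmp8 (9.16, 9.05 and 9.02) were lowest in replicate 3. Stromal markers (3 of 8) summed to 1292, 440 and 463, high in replicate 1. There too the genes that differed most, Dcn (8.12, 5.36 and 5.41), Sparc, Lox and Bgn, were not above background in every array. The 3 stromal markers that were, the collagen genes Col1a1 (6.94, 6.69 and 6.76), Col1a2 (6.53, 6.36 and 6.36) and Col3a1 (6.10 in each array), differed less. Col1a1 had a range of 0.25 log2 units. At the 99th percentile of receptor probe sets, 10 of 12 T cell and 4 of 9 NK cell markers remained. Of mast cell and basophil, neutrophil and stromal markers, 2, 1 and 2 of 8 each remained there. At the limit from genes of other tissues, 9 of the 12 T cell markers remained. In bulk RNA, fewer cells of a type and less RNA per cell cannot be told apart. The part of other cells in the differences of Cd274 and Cd200 was not tested.

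The sums of dendritic cell and macrophage markers differed less between arrays. Dendritic cell markers (8 of 9 above background) summed to 22347, 22863 and 22468, with Itgax, the gene of CD11c, at 11.91, 11.92 and 11.91, but this sum is carried by a few genes of high value. Ccr7, a chemokine receptor for migration to lymph nodes, had 10.15, 10.50 and 9.74, a range of 0.77 that is wider than those of Cd274 and Cd200, with its lowest value in replicate 3. Flt3, a marker of conventional dendritic cells, lay below background at 5.47, 5.47 and 5.24, and Zbtb46 had 6.36 in each array. At the 99th percentile of receptor probe sets 8 of the 9 dendritic cell markers remained. At the limit from genes of other tissues 7 remained, without Zbtb46. Macrophage markers (7 of 8, Cd163 below) summed to 19410, 18940 and 18447, again carried mostly by genes of high value. Of the 7, 4 were highest in replicate 1 and 2 in replicate 3. Mrc1 (11.10, 10.91 and 10.67), Csf1r (11.03, 10.94 and 10.77) and Adgre1 (10.25, 10.18 and 10.04) were lowest in replicate 3. B cell markers (2 of 7 above background) lacked Ms4a1 and Cd79a, endothelial markers (4 of 7) lacked Kdr, Tek and Emcn, and epithelial markers (3 of 6) lacked Epcam, Krt18 and Krt19. At the 99th percentile of receptor probe sets these counts were 0 of 7, 1 of 7 and 2 of 6, and of genes of other tissues 27.9% passed the 95th percentile.

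**Figure D5:**
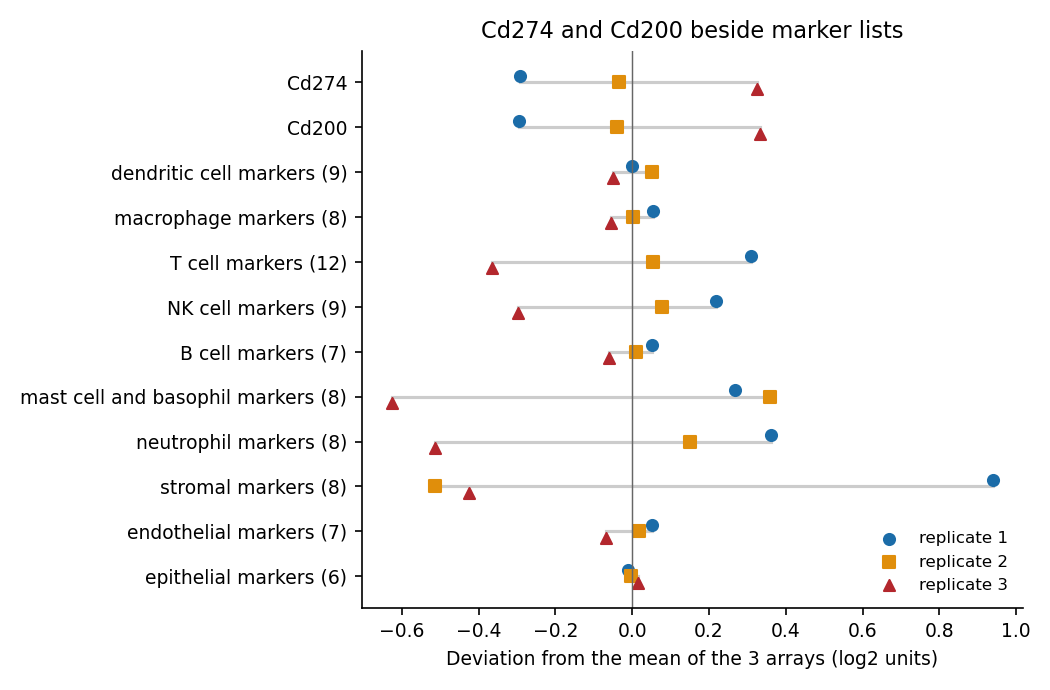
Deviation of each array from the mean of the 3 arrays (log2 units) for Cd274, Cd200 and the average over each marker list, with the number of measured markers in brackets. Cd274 and Cd200 are highest in replicate 3, where the T cell, NK cell, mast cell and neutrophil lists are lowest, and the stromal list is high in replicate 1.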

How the data were processed

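The authors deposited 1 log2 value per probe set and array, and the submitters' processing notes name RMA, a method that includes background correction, quantile normalization and median polish. Its software and the build are not given in the sources used here. No scanner files were used here. Of 35556 probe sets, 21789 name 1 gene in the platform annotation; 1621 naming several were not used. In 44.8% of probe sets the 3 values were identical, and in 46.5% of the genes above background, so an SD near 0 does not measure precision.

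From these values, the background call, means, SDs and ranges were computed in Python (3.11.15, with pandas 2.3.3). With 1 group, no test was made. Members and gene lists were chosen with earlier results of these data known. The genes named were the 10 members, the pathway lists, leading markers, and the 3 genes nearest to each member with 3 different values and a range above 0.2. Alternatives changed the limit, the use of every array or the mean, the probe set per gene, the range threshold and leaving out each replicate. The further limit used 43 genes of other tissues (silent tissue genes), 12 of which (27.9%) were above background.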

Additional observations from a re-analysis of the deposited data

How the results depend on the processing

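The same 8 of the 10 genes were above background under each alternative tried. These were the stricter receptor limit (99th percentile), the limit from silent tissue genes (95th percentile), a call on the mean, the other choices of probe set, probe sets naming several genes, and leaving out each replicate. The count of pathway genes stayed within 1.5 times its value of 49, between 44 with either other limit and 49. The number spanning more than 0.2 log2 units was 4, and it was between 2 and 4 without 1 replicate: without replicate 2 or replicate 3 it was 2, Cd274 and Cd200, as it was with a threshold of 0.5. Without replicate 1 the range was 0.36 for Cd274 and 0.37 for Cd200, and without replicate 3 it was 0.26 and 0.25; these fall by construction, since the outer arrays were left out. Cd80 had 8.58 as the median of its probe sets and 8.27 with the lower one, against 8.89, because its probe sets differ. No paired analysis was possible because the 3 samples form a single group. Signal limits the genes near background: Icosl at 6.51 in replicate 3 lay close to the 99th percentile there, 6.33.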

Other observations

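Windows of 250 bases before the start were held for 9 of the 10 genes. The AP-1 letters TGANTCA were in those of Cd80 and Havcr2 (6.75% of all windows), and the hypoxia response core ACGTG was in those of Btla and Havcr2 (16.6% of all windows). The windows of Icosl and Cd276 were rich in CpG, with 23 and 29 dinucleotides, and held none of the 6 motifs.

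The deposited values repeat across genes as well as arrays. The values of Btla were identical to those of 140 other probe sets in all 3 arrays, and those of Cd276 to 2 others. The other 8 genes shared their values over the 3 arrays with no other probe set.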
